A study of Mus musculus with 7 samples.

Results

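The genes described here are 8 adhesion and docking molecules through which vascular endothelium holds leukocytes: Icam1, Icam2, Vcam1, Sele, Selp, Ackr1, Pecam1 and Cd34. They were chosen by gene symbol, and each of the 8 was found on 1 line of the 32285 genes of the count tables. The data are 7 single-cell RNA libraries made with the 10x Genomics v3.1 chemistry, each from microvessels of 1 hemisphere of a C57Bl6 mouse brain without olfactory bulbs, brain stem or cerebellum. Per the labels the mice were untreated wild-type animals of 2 ages, 12 months (3 libraries) and 3 months (4 libraries). Cells were freed with collagenase and pulled out with beads against CD31, the product of Pecam1, so the mix of cells in each library is set partly by that capture.

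Leukocytes leave the blood in steps. Selectins on the endothelium catch fast-moving cells and let them roll, chemokines held on the endothelial surface activate their integrins, immunoglobulin-type molecules such as ICAM-1 and VCAM-1 hold them firmly, and junction molecules such as PECAM-1 take part in their passage through the wall. In most tissues this happens in venules after the capillary bed. Brain endothelium is known for low levels of these molecules in health and for raising them under inflammatory signals.

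The starts of 4 of the 8 genes are shown because these 4 share the venous pattern and the age difference described below and were in the promoter table used here. Each line gives the 250 bases before the RefSeq start on GRCm38.p6, 5′ to 3′ in the direction of the gene. Capitals mark matches on either strand to the nuclear factor kappa B type patterns GGANNTTCC and GGANNNTTCC or to the TATA box TATAAA.
Icam1: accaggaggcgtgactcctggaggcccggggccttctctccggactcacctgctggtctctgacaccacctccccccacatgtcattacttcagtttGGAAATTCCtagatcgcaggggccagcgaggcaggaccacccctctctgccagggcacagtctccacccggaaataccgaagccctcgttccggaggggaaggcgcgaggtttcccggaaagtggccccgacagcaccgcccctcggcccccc
Sele: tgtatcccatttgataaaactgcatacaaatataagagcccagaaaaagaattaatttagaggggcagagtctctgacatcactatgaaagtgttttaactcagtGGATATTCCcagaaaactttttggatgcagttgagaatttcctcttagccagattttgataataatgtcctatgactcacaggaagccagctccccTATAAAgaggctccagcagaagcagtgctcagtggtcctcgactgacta
Selp: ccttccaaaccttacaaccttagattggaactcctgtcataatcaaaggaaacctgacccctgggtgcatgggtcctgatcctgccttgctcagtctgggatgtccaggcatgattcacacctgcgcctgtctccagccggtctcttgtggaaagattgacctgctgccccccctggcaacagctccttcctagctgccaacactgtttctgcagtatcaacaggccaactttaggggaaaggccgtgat
Ackr1: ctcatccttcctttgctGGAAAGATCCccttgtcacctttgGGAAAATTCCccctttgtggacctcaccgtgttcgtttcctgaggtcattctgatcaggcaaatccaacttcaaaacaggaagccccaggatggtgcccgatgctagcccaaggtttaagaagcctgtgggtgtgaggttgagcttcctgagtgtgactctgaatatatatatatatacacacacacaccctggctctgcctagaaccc
The Icam1 window is chr9:21015690-21015939 on the plus strand, the Sele window chr1:164047984-164048233 plus, the Selp window chr1:164115014-164115263 plus and the Ackr1 window chr1:173333504-173333753 minus. Icam1 held GGAAATTCC from 153 to 145 bases before its start. Sele held GGATATTCC from 145 to 137 bases and TATAAA from 49 to 44 bases before its start. Ackr1 held GGAAAATTCC from 209 to 200 bases and, matched on the other strand, GGAAAGATCC from 233 to 224 bases before its start. The Selp window held none of the 3 patterns. Of 32851 windows of the same length, 3.59% held the first pattern, 3.25% the second, 6.66% either of these and 12.4% TATAAA; a match describes letters, not a bound site.

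In the gene annotation of the same build (GENCODE M21), Icam1 lies at chr9:21015985-21028817, Vcam1 at chr3:116109949-116129688, Icam2 at chr11:106377656-106388075 and Pecam1 at chr11:106654217-106750628. The selectin genes are neighbours on chromosome 1, with Sele at chr1:164048234-164057677 and Selp at chr1:164115264-164150026, and the same chromosome holds Ackr1 at chr1:173331886-173333750 and Cd34 at chr1:194938819-194961279. All 8 are protein-coding. Ackr1 overlaps Cadm3 on the same strand, so reads in the shared part cannot be told apart by position, and Icam1, Vcam1, Selp and Cd34 overlap predicted genes on the opposite strand.

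Of 43091 barcodes, 37176 passed the filters as cells, from 3795 to 8912 per library, with library totals of 8706961 to 44861008 UMIs (unique molecular identifiers, 1 per captured transcript). Median depth per cell was 1094 to 2780 UMIs in the 12-month and 3073 to 5328 in the 3-month libraries, and 209 barcode sequences occurred in more than 1 library. The 12-month libraries are single-indexed and the 3-month libraries dual-indexed per the labels, and they were processed with different versions of Cell Ranger per the file headers. Xist stood at 679 and 930 CPM in the endothelial cells of 3-month replicates 1 and 2 and under 0.3 CPM in the other 5 libraries, which held the Y-linked Ddx3y, so sex also differs in part. Age, index type, software version and depth therefore cannot be told apart in any age comparison below. Each library is 1 mouse as far as the labels say, and p-values measure the spread between libraries.

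Cells were clustered without the 8 genes, so none of them defined its own group, and clusters were named from marker genes that exclude them. Endothelial cells gave a venous cluster (2085 cells, led by Lrg1 and Ackr1), 3 arterial clusters, 5 capillary clusters and 2 unnamed clusters between these segments. The capillary clusters include 1 led by the stress-response genes Fos and Atf3, 1 led by the interferon-response genes Ifit3 and Cxcl10, and 1 led by Apln. A Plvap-led cluster of 1305 cells was kept apart as fenestrated-type endothelium; after thinning, Cldn5, the main claudin of the blood-brain barrier, was detected in 8.45% of its cells against 96.1% of capillary cells. Pericytes, smooth muscle cells and microglia were found in all 7 libraries. Levels below are in CPM, the UMIs of a gene per 1000000 UMIs of a class summed over its cells in a library, and because the chemistry reads 3′ ends they are compared within a gene only.

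**Figure D1:**
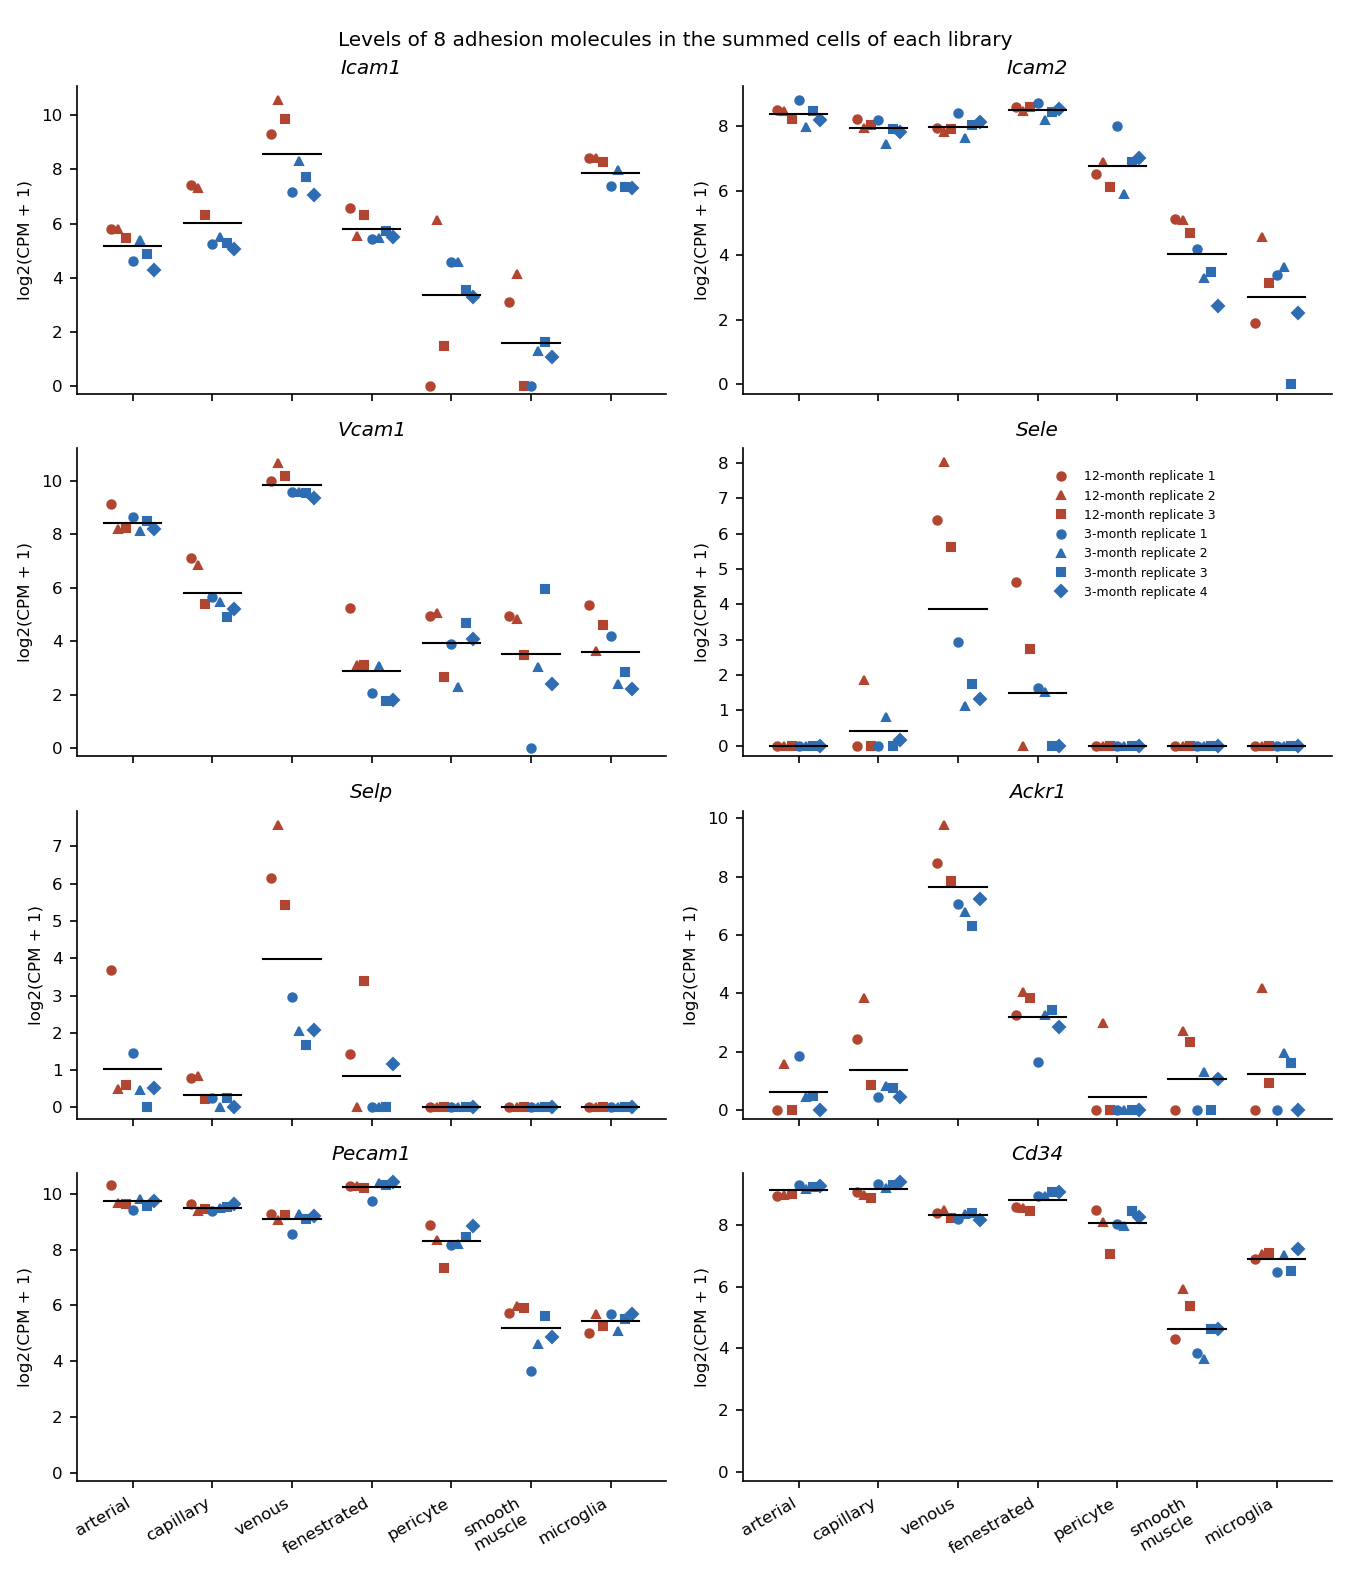
Levels of the 8 genes in 7 cell classes, 1 panel per gene; points are libraries (3 at 12 months, 4 at 3 months), the vertical axis is log2(CPM + 1), and the line is the mean of the log values. Sele, Selp and Ackr1 rise above the baseline in venous cells, Vcam1 steps down from venous to arterial to capillary cells, Icam1 is high in venous cells and microglia, and Pecam1 and Cd34 are high throughout the endothelium.

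By mean level the endothelial selectins were highest in venous cells. Sele encodes E-selectin, which is made on demand and slows rolling leukocytes; its venous level was 82.2, 258 and 48.5 CPM in the 12-month libraries and 6.72, 1.17, 2.35 and 1.502 CPM in the 3-month libraries. Replicate 2 of the 12-month group stood highest, with 878 UMIs of the 1104 found in venous cells of all libraries. Fenestrated-type endothelium came second by mean, at 4.78 CPM (0 to 23.7), a range that overlapped the venous one, and in 3-month replicate 2 it stood at 1.87 CPM against 1.17 in venous cells. Capillary cells held 21 Sele UMIs in all, and none was found in arterial cells, pericytes, smooth muscle cells or microglia. Sums over all libraries were set against a floor of 3 UMIs over the summed class. The venous sum was at least 229-fold higher than the arterial and 47.7-fold higher than the pericyte sum. It was at least 92.2-fold higher than the smooth muscle and 93.8-fold higher than the microglial sum. These bounds rest on the 12-month libraries, which held 1061 of the 1104 venous UMIs. At 3 months the venous sum was 2.68 CPM. The floors there were 0.348 CPM in arterial cells, 1.86 in pericytes, 0.792 in smooth muscle cells and 1.33 in microglia.

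Selp encodes P-selectin, which endothelial cells store in granules and bring to the surface within minutes of stimulation. Its venous level was 70.0, 190 and 42.4 CPM at 12 months and 6.72, 3.11, 2.21 and 3.25 CPM at 3 months, and the 18 UMIs behind the first 3-month value came from 2 cells. Capillary cells held 9 Selp UMIs and arterial cells 17, of which 11 came from 10 cells of 12-month replicate 1. Pericytes, smooth muscle cells and microglia held none, which puts the venous sum over all libraries at least 37.1-fold, 71.7-fold and 73.0-fold higher, respectively. At 3 months alone the venous sum was 3.37 CPM, beside floors of 1.86, 0.792 and 1.33 CPM in these 3 classes. Within arteries, Selp was found mainly in the cluster led by Fbln5, Mgp and Cytl1, genes of larger arteries, with a mean of 8.33 ± 10.1 CPM (SD, n = 7) against 0 in the Gkn3-led cluster.

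Ackr1, the atypical chemokine receptor that carries chemokines across venular endothelium without signalling itself, was highest in venous cells. Its venous level was 354, 873 and 229 CPM at 12 months and 133, 109, 78.1 and 149 CPM at 3 months. The next highest class was the fenestrated-type endothelium at 9.08 ± 4.39 CPM (SD, n = 7), which did not overlap the venous range. Capillary cells averaged 2.96 CPM and reached 13.3 CPM in 12-month replicate 2, the library with the highest venous level.

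Of the molecules of firm adhesion, Icam1 and Vcam1 were highest in venous cells and Icam2 was spread over the endothelium. Icam1, the inducible ligand of the leukocyte integrins LFA-1 and Mac-1, stood at 629, 1506 and 926 CPM in venous cells at 12 months and at 145, 315, 211 and 133 CPM at 3 months. The capillary values were 173, 158 and 79.2 CPM at 12 months and 36.6, 44.1, 37.9 and 32.2 CPM at 3 months. In descending order of the means, Icam1 stood at 552 ± 512 CPM in venous cells, 248 ± 85.1 in microglia, 80.1 ± 60.5 in capillary, 57.3 ± 20.8 in fenestrated-type and 37.7 ± 14.7 CPM in arterial cells (SD, n = 7). Neighbours in that order overlapped between libraries, since the libraries differed widely, but venous exceeded capillary cells within each of the 7.

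Vcam1, the ligand of the integrin VLA-4, was also an arterial gene. Venous cells held 1004, 1635 and 1154 CPM at 12 months and 763, 766, 745 and 649 CPM at 3 months. Arterial cells held 562, 295 and 303 CPM at 12 months and 395, 275, 356 and 289 CPM at 3 months. The arterial cluster led by Fbln5, Mgp and Cytl1 averaged 948 CPM, against 94.4 CPM in the one led by S100a6. It made up 34.1% of arterial cells in 12-month replicate 1 and 8.77% to 12.75% in the other libraries. The part of this mix in the arterial values was not tested. Capillary cells held 136, 114 and 41.1 CPM at 12 months and 49.8, 43.7, 29.3 and 36.2 CPM at 3 months. The venous, arterial and capillary ranges did not overlap, and smooth muscle cells, pericytes, microglia and fenestrated-type endothelium all averaged under the capillary mean of 64.3 ± 42.4 CPM (SD, n = 7).

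Icam2, a constitutive endothelial ligand of LFA-1, showed no venous excess. Its mean was 361 ± 38.8 CPM in fenestrated-type, 333 ± 63.4 in arterial, 254 ± 45.0 in venous and 246 ± 41.9 in capillary endothelium (SD, n = 7), and these 4 ranges overlapped. Pericytes followed at 119 ± 64.5 CPM, while smooth muscle cells averaged 18.9 and microglia 8.27 CPM.

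Pecam1 and Cd34 ran against the venous molecules. Pecam1, the junction protein that was also the handle of the capture, averaged 870 ± 195 CPM in arterial, 728 ± 49.9 in capillary and 555 ± 84.4 in venous cells (SD, n = 7), and the capillary and venous ranges did not overlap. Fenestrated-type endothelium was highest at 1215 ± 172 CPM. Cd34, a sialomucin that in some vessels carries the sugars bound by L-selectin, averaged 575 ± 75.5 CPM in capillary and 560 ± 57.0 in arterial cells against 318 ± 26.8 CPM in venous cells. Its venous values were 332, 359 and 298 CPM at 12 months and 289, 327, 331 and 287 CPM at 3 months, all below the lowest capillary value of 471 CPM.

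The segments were compared with edgeR's quasi-likelihood test on summed counts with the library as a term, p-values adjusted by Benjamini-Hochberg over all genes and a threshold of 0.05. Between venous and capillary cells, 7 of the 8 genes passed, against 42.3% of the 11831 genes tested; 5 were higher in venous cells (22.5% of genes) and 2 lower (19.8%). The log2 differences were 7.10 ± 0.28 (SE) for Selp (adjusted p = 4.13e-13), 6.89 ± 0.20 for Ackr1 (1.11e-14), 6.29 ± 0.41 for Sele (6.29e-10), 4.14 ± 0.16 for Vcam1 (5.19e-13) and 2.66 ± 0.16 for Icam1 (1.19e-10). Cd34 was lower by a log2 difference of -0.79 ± 0.08 (3.12e-07) and Pecam1 by -0.34 ± 0.07 (5.66e-04). Icam2 differed by 0.12 ± 0.09 (adjusted p = 0.291). As ratios of mean CPM, venous cells held 6.89 times the capillary level of Icam1, 14.9 times that of Vcam1, 92.7 times that of Ackr1, 114 times that of Sele and 152 times that of Selp.

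Between arterial and capillary cells, 5 of the 6 genes that could be tested passed, against 40.8% of genes; 3 were higher (21.5%) and 2 lower (19.3%), and Sele and Selp had too few counts. Vcam1 was higher in arteries by a log2 difference of 2.64 ± 0.17 (SE, adjusted p = 1.59e-11) and Icam2 by 0.44 ± 0.07 (2.74e-05). Icam1 was lower by -0.90 ± 0.14 (1.16e-05). Pecam1 was higher by 0.23 ± 0.08 (0.0202), a call that was lost without 12-month replicate 2 (0.22, adjusted p = 0.0545), and Ackr1 was lower by -1.97 ± 0.57 (0.00860) at levels near 1 CPM, a call that was lost with DESeq2 (-1.52, adjusted p = 0.138). Cd34 differed by -0.04 (adjusted p = 0.705). The lower arterial Icam1 did not hold cluster by cluster. Its mean was 58.3, 42.7 and 22.1 CPM in the 3 arterial clusters. It was 119.8 CPM in the Fos-led capillary cluster and 30.9 to 84.7 CPM in the other capillary clusters.

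Between venous and arterial cells all 8 genes passed, against 43.2% of genes; 5 were higher in veins (21.6%) and 3 lower (21.5%). The log2 difference was 3.64 ± 0.22 for Icam1, 1.47 ± 0.15 for Vcam1, 8.58 ± 0.21 for Ackr1 and 5.16 ± 0.42 for Selp, and Sele passed with every arterial library at 0. The Selp difference ranged from 3.47 without 12-month replicate 2 to 6.497 without 12-month replicate 1 and passed in each case. Icam2 (-0.33 ± 0.07), Pecam1 (-0.58 ± 0.07) and Cd34 (-0.77 ± 0.08) were lower in veins.

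Shares of cells with at least 1 UMI depend on depth, and venous cells were deep, with median UMIs of 1828 to 17225 per library against 896 to 4242 in capillary cells. Cells were therefore thinned to 1000 UMIs each, which left out 51 of the 12-month venous cells and none at 3 months, and 1481 and 203 capillary cells, respectively. After thinning, Vcam1 was detected in 50.2% ± 10.46 of venous and 3.73% of capillary cells, Icam1 in 26.9% ± 19.0 and 5.85%, and Ackr1 in 16.1% ± 12.8 and 0.243% (SD over 7 libraries). Without thinning the shares were 84.2% and 6.32% for Vcam1, 67.9% and 10.46% for Icam1, and 43.5% and 0.440% for Ackr1. Each of these differences had the smallest p that an exact sign-flip permutation test over 7 libraries can give, 0.0156 (two-sided), which was 0.0312 adjusted over 24 tests. Cd34 was detected in fewer venous (26.5%) than capillary (42.3%) cells after thinning, with the same p, but in more of them without thinning (79.0% against 67.9%).

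Sele was detected in 2.97% of venous cells after thinning and 11.8% without, and Selp in 2.73% and 8.18%. After thinning neither differed from capillary cells past the threshold over 24 tests (exact permutation p = 0.125 and 0.0312, adjusted 0.158 and 0.0536). Without thinning both were higher in venous than in capillary cells in 7 of 7 libraries (exact permutation p = 0.0156, adjusted 0.0221). The shares were largest in 1 library: without thinning, 203 of 382 venous cells of 12-month replicate 2 held Sele (53.1%, exact 95% interval 48 to 58.2) and 121 held Selp (31.7%, 27.0 to 36.6). In the 3-month libraries 1 to 10 venous cells held Sele and 2 to 10 held Selp. Thinned arterial cells gave 0 cells with Sele of 2613, which allows up to 0.115% of cells with a UMI at this depth, and microglia gave 0 of 2124, which allows up to 0.141%. These intervals and limits cover counting error only and do not limit the share of cells that express the gene. After thinning, arterial cells held Vcam1 in 20.9%, Icam2 in 29.5% and Icam1 in 3.29%, and 12 of the 24 comparisons between segments passed. The Icam1 share of arterial cells did not differ from that of capillary cells past the threshold (exact permutation p = 0.0938, adjusted 0.132).

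**Figure D2:**
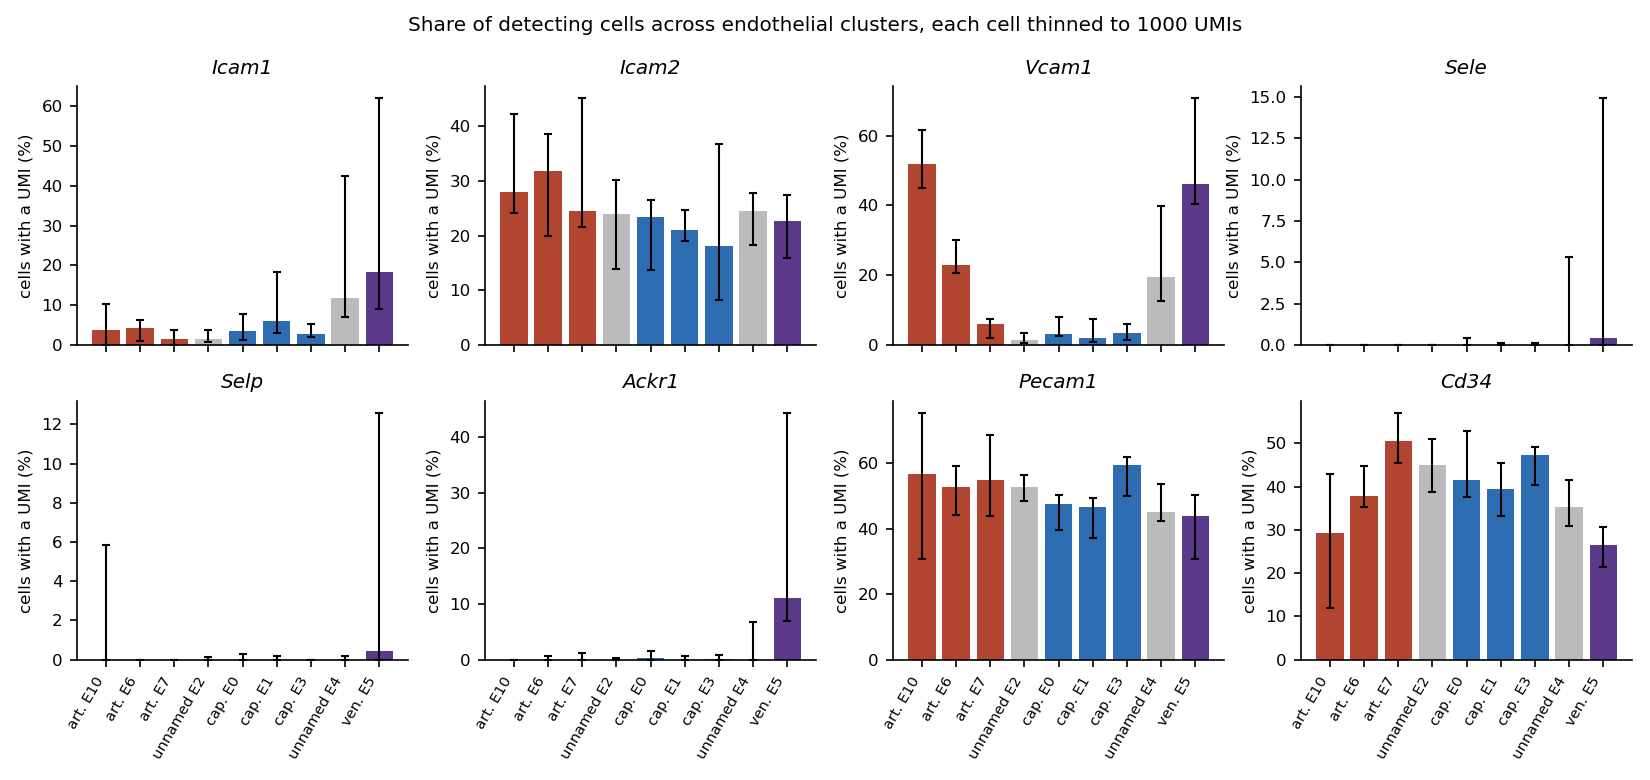
Share of cells with at least 1 UMI after thinning to 1000 UMIs, for each gene in 9 endothelial clusters from arterial (left) to venous (right); bars are medians over 7 libraries and whiskers the lowest and highest library. Vcam1 is high at both ends, at 52.0% in the first arterial and 46.0% in the venous cluster, and low between them. Icam1 is highest at the venous end. The order of the capillary clusters among themselves was not tested.

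Along the vessel tree Vcam1 was high at both ends, and Icam1 was highest at the venous end. The median share with Vcam1 was 52.0% in the arterial cluster led by Fbln5 and Mgp, 22.8% in the Gkn3-led and 5.99% in the S100a6-led arterial cluster, and 1.30% in the unnamed cluster between arterial and capillary cells. It was 2.04% to 3.30% in the 3 largest capillary clusters, 19.3% in the unnamed cluster between capillary and venous cells, and 46.0% in the venous cluster. In CPM the first arterial cluster held Vcam1 at 948 ± 111 (SD, n = 7), close to the venous mean of 960 ± 345. Icam1 showed 3.77%, 4.29% and 1.38% in the 3 arterial clusters, and 1.54% in the unnamed cluster between arterial and capillary cells. It showed 2.61% to 6.095% in the 3 largest capillary clusters, 11.9% in the cluster before the veins and 18.3% in the venous cluster. In CPM Icam1 averaged 58.3 in the first and 42.7 in the Gkn3-led arterial cluster, above 22.1 in the S100a6-led one.

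The cluster between capillary and venous cells, with 3673 cells led by Cyp2e1 and Flrt2, carried the firm adhesion molecules but little of the venous docking molecules. Icam1 stood there at 575, 920 and 523 CPM at 12 months and at 118, 205, 132 and 90.6 CPM at 3 months, and Vcam1 at 409, 791 and 384 CPM against 257, 327, 254 and 177 CPM. Ackr1 was at 22.1, 84.3 and 5.94 CPM at 12 months and at 0.358 to 2.94 CPM at 3 months. Selp was at 0 to 5 UMIs per library. Sele was at 0 to 16 UMIs in 6 libraries and at 361 UMIs in 12-month replicate 2, where 126 of 749 cells held it (16.8%).

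Co-detection was described in 2034 venous cells thinned to 1000 UMIs, with odds ratios computed within each library and no test, since cells of a library are not independent. Of these cells 1054 held Vcam1, 617 Icam1, 359 Ackr1, 77 Sele and 70 Selp. Icam1 and Vcam1 were together in 392 cells, with odds ratios of 1.15 to 1.65 and a median of 1.49 over 7 libraries, above 1 in each. Vcam1 and Ackr1 were together in 248 cells, with odds ratios of 1.24 to 2.89 (median 2.05), again above 1 in all 7. For comparison, the endothelial gene Cldn5 had median odds ratios of 0.978 with Icam1, 1.31 with Vcam1 and 0.911 with Ackr1. All cells had equal depth after thinning, which does not remove other traits that go with the original depth of a cell. The part of such traits was not tested.

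Cells with Sele held Vcam1 more often than other venous cells of the same library in the 3 libraries that allowed an odds ratio (1.55 to 4.12). Of the 77 cells with Sele, 62 held Vcam1 (80.5%); 57 of the 77 came from 12-month replicate 2, where 70.7% of all venous cells held Vcam1. Of the 70 cells with Selp, 48 held Vcam1 (68.6%), with odds ratios of 0.629 to 3.05 (median 1.01) in 3 libraries. Sele and Selp shared 16 cells, with odds ratios of 2.79 and 4.11 in the 2 libraries that allowed one. Of the 70 cells with Selp, 38 held Ackr1 (54.3%), with odds ratios of 1.03 to 2.93 in 3 libraries, whereas Sele and Ackr1 gave 0.606 to 5.197 (median 0.903). Among the constitutive molecules, Icam2 with Ackr1 had a median odds ratio of 0.673, above 1 in 1 of 7 libraries, and Pecam1 with Cd34 one of 0.894. In capillary cells, where both are rare, Icam1 and Vcam1 had odds ratios of 1.74 to 18.2 (median 5.55), from 96 cells with both of 684 with Icam1 and 443 with Vcam1.

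**Figure D3:**
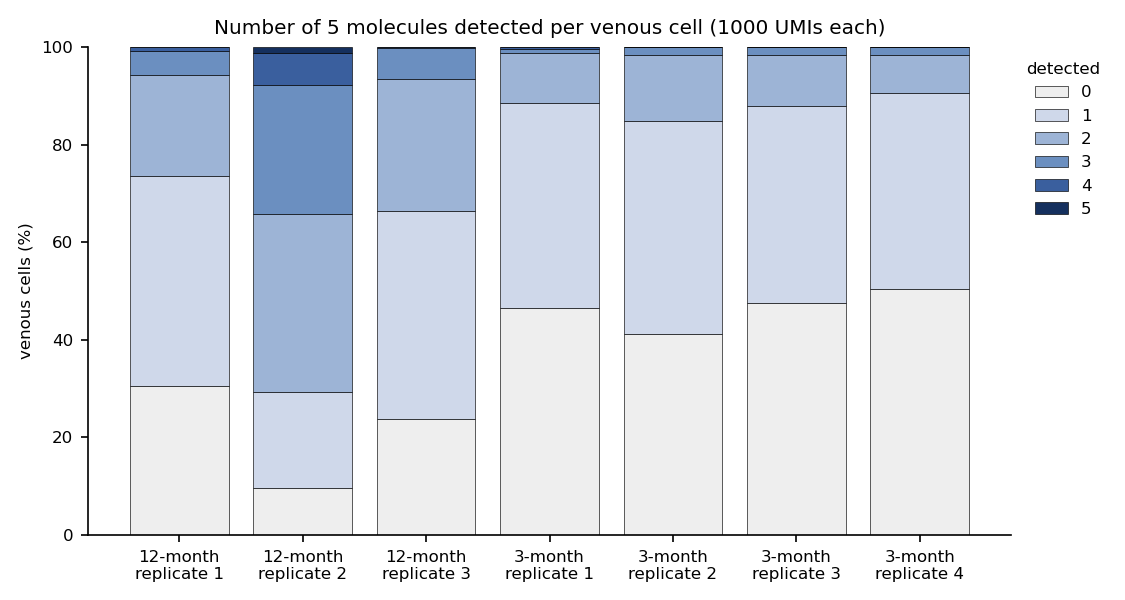
Percent of venous cells, thinned to 1000 UMIs, in which 0 to 5 of Icam1, Vcam1, Sele, Selp and Ackr1 were detected, stacked for each of the 7 libraries. Cells with none make up 9.69% in 12-month replicate 2 and 41.3% to 50.4% in the 3-month libraries.

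Counting Icam1, Vcam1, Sele, Selp and Ackr1 together, 677 of 2034 venous cells held none of the 5, 766 held 1, 402 held 2, 154 held 3, 30 held 4 and 5 held all 5. Cells with none made up 30.6%, 9.69% and 23.9% of venous cells in the 12-month libraries and 46.6%, 41.3%, 47.6% and 50.4% in the 3-month libraries, ranges that do not overlap. All 5 cells with every molecule were in 12-month replicate 2, where cells with 3 molecules made up 26.4%. In capillary cells 12922 of 13981 held none, and in arterial cells 2013 of 2613.

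**Figure D4:**
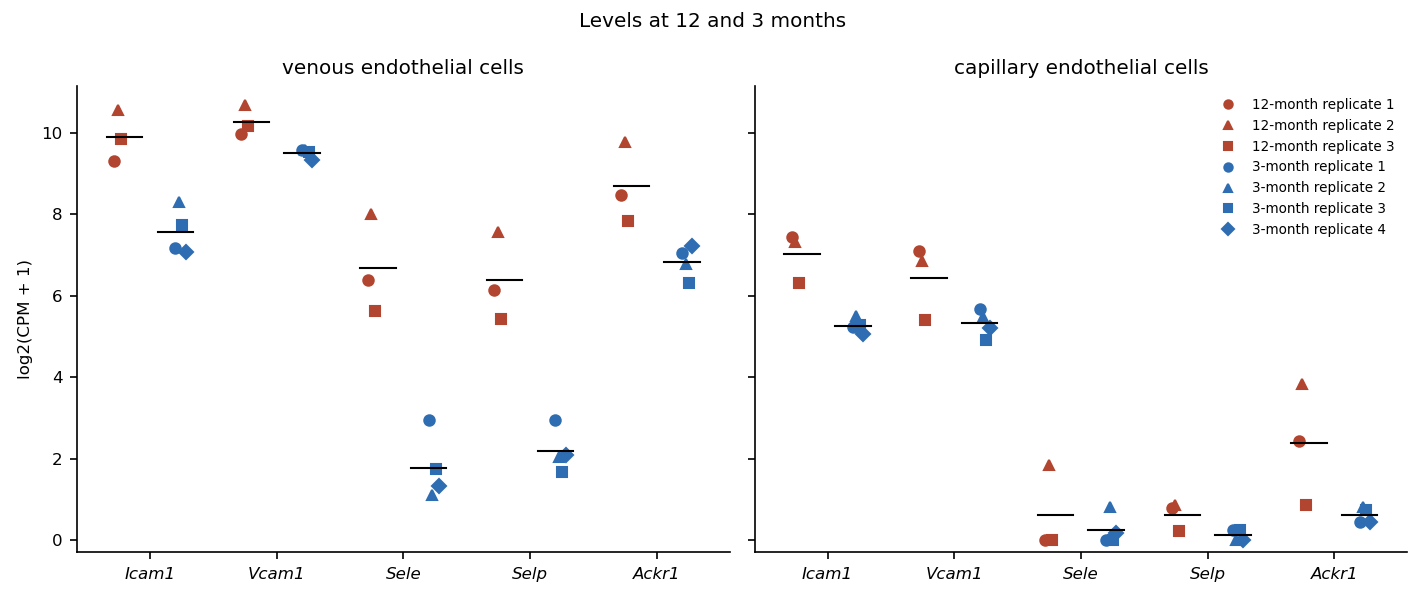
Levels of Icam1, Vcam1, Sele, Selp and Ackr1 in venous and capillary cells of the 12-month and 3-month libraries, as log2(CPM + 1); points are libraries and lines are means of the log values. In venous cells the 3 libraries at 12 months lie above all 4 at 3 months for each of the 5 genes.

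In venous cells Icam1, Sele, Selp and Ackr1 were higher at 12 than at 3 months. Of the 8 genes, 4 passed edgeR's test, all higher at 12 months, against 2.45% of the 10425 genes tested (2.05% higher). Icam1 averaged 1020 ± 446 against 201 ± 83.5 CPM (SD, n = 3 and 4), a log2 difference of 2.45 ± 0.33 (SE, adjusted p = 9.31e-04). Sele averaged 130 ± 112 against 2.94 ± 2.57 CPM, a log2 difference of 5.67 ± 0.61 (1.40e-04), and Selp 101 ± 78.5 against 3.82 ± 1.99 CPM, a log2 difference of 4.95 ± 0.51 (8.86e-05). Ackr1 averaged 485 ± 341 against 117 ± 30.7 CPM, a log2 difference of 2.15 ± 0.38 (0.00721). Without 12-month replicate 2 the Ackr1 difference was 1.41 and no longer passed (adjusted p = 0.0587), while Icam1 (2.05), Sele (4.62) and Selp (4.05) still did.

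Vcam1 averaged 1264 ± 330 against 731 ± 55.3 CPM in venous cells, a ratio of 1.73 and a log2 difference of 0.88 ± 0.22 that missed the threshold (adjusted p = 0.0583). It passed without 3-month replicate 1 (0.95, adjusted p = 0.00748), with DESeq2 (0.89, 0.00209) and with no filter on low counts (0.86, 0.0182). The constitutive molecules differed by -0.11 (Icam2, adjusted p = 0.897), 0.23 (Pecam1, 0.713) and 0.19 (Cd34, 0.745). The age groups did not overlap in 5 of the 8 genes, Icam1, Vcam1, Sele, Selp and Ackr1, all higher at 12 months, against 13.4% of genes in either direction and 4.45% higher at 12 months. The 3-month libraries with Xist and those with Ddx3y lay below the 12-month libraries in all 5. Every 12-month library held Ddx3y, and the part of sex was not tested.

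Summed marker genes of other cells were also somewhat higher in the venous sums at 12 months. The microglial list (8 of 8 genes with UMIs) summed to 44.4 to 106 CPM at 12 months and 31.3 to 40.7 CPM at 3 months, and the list of other myeloid cells (7 of 9, with S100a8 and Ms4a7 at 0) to 8.22 to 13.3 and 1.56 to 7.01 CPM. The arterial list summed to 343 to 610 and 186 to 250 CPM, and the venous list to 5451 to 6769 and 4701 to 5867 CPM. Their part in the result was not tested; microglia held no Sele or Selp UMI, and their Icam1 CPM was below that of the venous sums in 5 libraries and above it in 3-month replicates 1 (167 against 145) and 4 (157 against 133).

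By share of cells, the age groups of venous cells lay apart after thinning and close together or reversed before it for Icam1 and Vcam1. After thinning, Icam1 was detected in 34.8%, 62.0% and 37.4% of venous cells at 12 months and in 10.7%, 18.3%, 16.3% and 9.09% at 3 months, and Vcam1 in 50.1%, 70.7% and 56.6% against 44.9%, 46.0%, 42.7% and 40.5%. Without thinning the mean shares were 69.7% and 66.6% for Icam1 and 79.2% and 88.0% for Vcam1, at median depths of 1828 to 7816 UMIs at 12 months and 9666 to 17225 at 3 months. Ackr1 was detected after thinning in 12.2%, 44.2% and 17.0% against 10.3%, 11.1%, 6.88% and 10.7%. Icam1, Vcam1, Sele, Selp, Ackr1 and Cd34 each reached the smallest p that 35 splits of 3 against 4 allow in an exact permutation test, 0.0286, which was 0.152 adjusted over 48 tests and did not pass.

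In capillary cells 2 of the 5 genes with enough counts passed, Icam1 and Vcam1, both higher at 12 months, against 4.43% of genes (2.58% higher). Icam1 averaged 137 ± 50.3 against 37.7 ± 4.93 CPM (SD, n = 3 and 4), a log2 difference of 1.93 ± 0.24 (SE, adjusted p = 7.81e-04). Vcam1 averaged 97.0 ± 49.5 against 39.8 ± 8.93 CPM, a log2 difference of 1.35 ± 0.32 (0.0301), with overlapping libraries. The Vcam1 call was lost without 12-month replicate 1 (1.11, adjusted p = 0.122), 12-month replicate 2 (1.14, 0.146), 3-month replicate 3 (1.23, 0.0788) or 3-month replicate 4 (1.29, 0.0712). Icam2 (0.31, adjusted p = 0.332), Pecam1 (0.08, 0.824) and Cd34 (-0.23, 0.423) did not pass. The groups did not overlap for Icam1, higher at 12 months, and Cd34, lower. Of all genes tested, 20.7% did not overlap in either direction, 5.07% higher and 15.6% lower. Ackr1 had too few counts to be tested and is not part of those shares. Its groups also did not overlap, but only narrowly. The lowest 12-month value was 0.813 CPM from 5 UMIs and the highest 3-month value 0.774 CPM from 7 UMIs.

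The capillary clusters were filled unevenly by the 2 ages, with 108, 288 and 482 cells of the Ivns1abp-led cluster at 12 months and 717, 754, 1080 and 807 at 3 months. Within each of the 3 largest the Icam1 mean was still higher at 12 months, at 78.3 against 23.7 CPM in the Car4-led, 209 against 52.7 CPM in the Fos-led and 39.2 against 24.6 CPM in the Ivns1abp-led cluster. The Vcam1 means were 125 against 36.9, 74.1 against 31.9 and 79.6 against 36.0 CPM. These values within clusters were not tested.

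In arterial cells 0 of 5 genes passed between the ages in edgeR's test, against 0.634% of genes. Icam1 was nearest, at 54.8, 54.8 and 42.9 CPM against 23.5, 41.4, 28.0 and 18.6 CPM, a log2 difference of 0.88 ± 0.25 (SE, adjusted p = 0.195); it was the only one with an unadjusted p under 0.05 (0.00330). It passed without 3-month replicate 2 (1.18, adjusted p = 0.0360) and with no filter on low counts (0.87, 0.00755). The groups did not overlap for Icam1, higher at 12 months, and Cd34, lower, against 8.83% of genes in either direction, 3.15% higher and 5.68% lower.

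Whether the age difference itself differed between venous and capillary cells was tested as an interaction, in which 3 of the 8 genes passed against 8.51% of genes; 2 were in the direction of veins (3.45%) and 1 of capillaries (5.06%). The age difference was larger in veins for Sele by 3.55 ± 1.10 on the log2 scale (SE, adjusted p = 0.0416) and for Cd34 by 0.39 ± 0.12 (0.0445), and smaller for Icam2 by -0.42 ± 0.12 (0.0313). The Sele value rested on few capillary UMIs, and was 7.76 without 12-month replicate 2 and 1.45, not passing, without 3-month replicate 2. Of 9 alternatives, the call held in 1 for Icam2, 3 for Sele and 4 for Cd34, and with the replicate number as a block it held for none of them. For Icam1 (0.57, adjusted p = 0.110), Selp (2.73, 0.196), Ackr1 (-1.20, 0.0723), Vcam1 (-0.38, 0.342) and Pecam1 (0.13, 0.549) a difference between the segments was not detected.

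**Figure D5:**
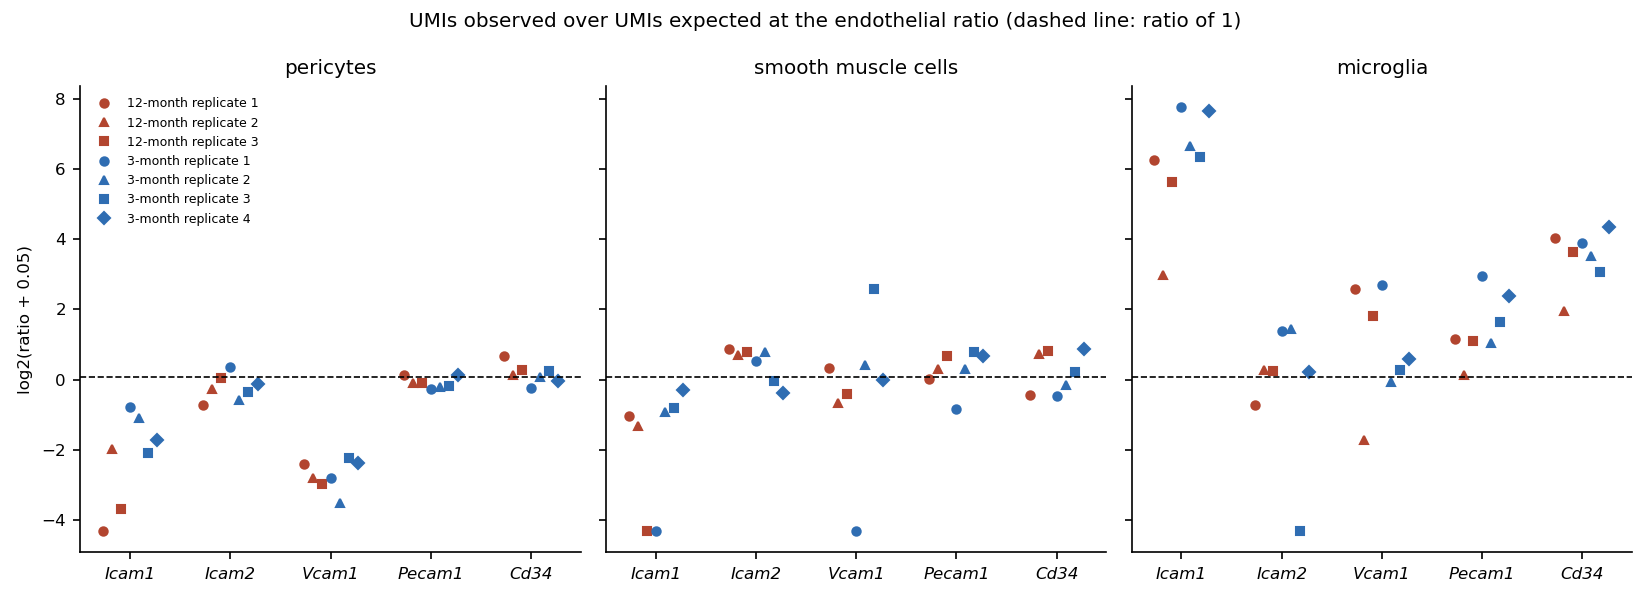
Ratio of observed UMIs of Icam1, Icam2, Vcam1, Pecam1 and Cd34 in pericytes, smooth muscle cells and microglia to the UMIs that endothelial marker RNA in the same sums would bring, as log2(ratio + 0.05); points are libraries and the dashed line marks a ratio of 1. Icam1 and Cd34 in microglia lie above the line in all 7 libraries, while pericyte values of Icam1 and Vcam1 lie below it. The expected UMIs use the ratio over all endothelial classes, venous cells included.

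Among the cells around the endothelium, mural cells held less of every gene that could be tested. In pericytes 5 of 5 passed against capillary cells, all lower, against 35.6% of genes (17.3% lower), with log2 differences of -1.78 for Icam1, -1.11 for Icam2, -1.67 for Vcam1, -1.26 for Pecam1 and -1.20 for Cd34. In smooth muscle cells 5 of 5 passed, all lower, against 66.0% (35.5% lower), from -1.33 for Vcam1 to -4.26 for Cd34. The pericyte sums themselves held endothelial markers (10 of 10 genes) at 6369 to 14870 CPM, and the smooth muscle sums at 594 to 1841 CPM. If members came with those markers in the ratio seen in endothelial cells of the same library, observed UMIs in pericytes were 1.02 times that expectation for Cd34, 0.894 for Pecam1, 0.844 for Icam2, 0.203 for Icam1 and 0.108 for Vcam1. Sele and Selp gave 0 UMIs in pericytes against 30.6 and 16.8 expected, and without 12-month replicate 2 the expectation was 2.04 and 1.76 UMIs. The ratio was taken over all endothelial classes, and summed Vcam1 stood at 915 CPM in venous and 49.9 CPM in capillary cells. The expectation for Icam1, Vcam1, Sele and Selp therefore depends on the segment that the endothelial RNA came from, which was not tested. In smooth muscle cells the ratio was 1.41 for Icam2, 1.30 for Cd34, 1.275 for Pecam1 and 0.343 for Icam1. The Vcam1 ratio there was 1.26, but 60 of its 117 UMIs came from 3-month replicate 3; it was 0.690 without that library and 2.14 without 12-month replicate 2, an alternative chosen after seeing the data.

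After thinning, Icam2 was detected in 6.65% of pericytes and 1.60% of smooth muscle cells, and Pecam1 in 15.2% and 2.09%, beside Cldn5 in 44.8% and 8.95% of the same cells. Between the ages 0 of 5 genes passed in pericytes in edgeR's test, against 0.117% of genes, with Icam1 alone at an unadjusted p under 0.05 (0.0351). In smooth muscle cells 0 of 4 passed, against 0.328%; Icam2 was nearest (log2 difference 1.67 ± 0.38, adjusted p = 0.0555), ahead of Cd34 (1.29, 0.111) and Pecam1 (1.01, 0.207). Icam2 and Pecam1 did not overlap between the ages there, higher at 12 months, against 9.14% of genes in either direction and 5.42% higher. The endothelial markers in the smooth muscle sums moved the same way, at 1164 to 1841 CPM at 12 months and 594 to 976 CPM at 3 months.

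Microglia, the resident macrophages of the brain, held far more Icam1 than the endothelial RNA in their sums would bring. Their level was 342, 342 and 311 CPM at 12 months and 167, 252, 164 and 157 CPM at 3 months, a log2 difference from capillary cells of 1.88 ± 0.16 (SE, adjusted p = 1.68e-09). Against capillary cells 5 of the 6 testable genes passed, against 69.4% of genes; Icam1 was the 1 higher (32.9%) and 4 were lower (36.5%), namely Icam2 (-5.19), Pecam1 (-4.15), Cd34 (-2.26) and Vcam1 (-1.77), while Ackr1 differed by -0.05 (adjusted p = 0.952). Observed Icam1 UMIs were 51.8 times those that endothelial marker RNA would bring, from 7.85 to 218 times over the 7 libraries. The same ratio was 12.2 for Cd34 and 2.48 for Pecam1, above 1 in all 7. It was 2.94 for Vcam1 and 1.17 for Icam2, each above 1 in 5 of 7, and Vcam1 ranged from 0.256 to 6.496. After thinning, 20.6% ± 6.52 of microglia held Icam1 and 0.732% held Icam2 (SD, n = 7).

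Microglial Icam1 was higher at 12 months, at 331 ± 18.0 against 185 ± 45.1 CPM (SD, n = 3 and 4), a log2 difference of 0.90 ± 0.21 (SE, adjusted p = 0.0296). It was the 1 of 3 testable genes that passed, against 1.69% of genes (1.40% higher), and the 1 gene whose groups did not overlap, against 11.8% in either direction and 4.16% higher. In microglia without any Cldn5 UMI the difference was 0.88 (adjusted p = 0.0272). The call was lost without 12-month replicate 1, 12-month replicate 3, 3-month replicate 3 or 3-month replicate 4. Markers of other myeloid cells (5 of 9 genes with UMIs) stood at 347 to 583 CPM in the microglial sums at 12 months and 199 to 258 CPM at 3 months, and endothelial markers (10 of 10) at 307 to 1703 and 243 to 499 CPM; their part in the result was not tested.

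The surrounding pathway was read from 66 other genes of leukocyte trafficking in 8 roles. The list was chosen with earlier results of these data known. Its counts beside those of all genes are therefore a description only. Between venous and capillary cells 24 of 52 tested genes were higher (46.2%, against 22.5% of all genes) and 12 lower (23.1%, against 19.8%), with a median log2 difference of 0.13 beside 0.01 over all genes. Of 7 genes of the nuclear factor kappa B pathway, which drives the inducible adhesion genes, 6 were higher in veins and 0 lower. The shares of all genes beside them are the same 22.5% and 19.8%. Nfkbiz (2.10), Nfkbia (1.03) and Tnfaip3 (1.02) led the higher ones. Of 8 cytokine receptors 6 were higher and 1 lower, led by the interleukin-1 receptor Il1r1 (3.26), the shared interleukin-6 family subunit Il6st (1.75) and the tumour necrosis factor receptor Tnfrsf1a (1.52). Of 8 chemokines and atypical receptors 4 were higher and 3 lower: Ccl19 (4.71), Cxcl10 (3.12) and Cxcl1 (2.29) were higher, and Cxcl12 fell from 3957 ± 755 to 270 ± 70.5 CPM (SD, n = 7), a log2 difference of -3.83.

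The other roles were mixed between venous and capillary cells, to be read beside 22.5% of all genes higher and 19.8% lower. Of 8 other adhesion molecules and sialomucins 3 were higher and 3 lower, with Emcn, the endothelial sialomucin endomucin, at -0.71, Podxl at -0.33 and Cd93 at 0.45. Of 7 junction molecules 1 was higher, Nectin2 (1.79), and 1 lower, Pvr (-0.64). The linkers under the receptors gave 1 higher of 7, Rdx (0.39), and 1 lower. The glycosylation enzymes of selectin ligands gave 2 higher and 2 lower of 4, with B4galt1 at 0.41.

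Between the ages the counts of this list are likewise a description only. Over the 49 trafficking genes tested in veins, the median log2 difference was 0.20 beside -0.02 over all genes. Of these 49, 12 were higher at 12 months (24.5%, against 2.05% of all genes) and 0 lower (0.393% of all genes). They include 4 of 7 genes of the nuclear factor kappa B pathway, Nfkbiz (2.31), Tnfaip3 (1.81), Nfkbia (1.13) and Nfkb2 (1.12), and the chemokines Cxcl1 (2.41) and Cxcl10 (1.09). Il1r1 (1.04), Il6ra (0.97), Il4ra (0.94) and the adhesion molecule Alcam (1.56) were also higher. In capillary cells 4 of 49 were higher (2.58% of all genes) and 2 lower (1.86%), with Nfkbiz at 2.03 and Itga4, the alpha subunit of VLA-4, at -2.70. Arterial cells gave 2 higher of 45 (0.478% of all genes), pericytes 0 in either direction of 36 (0.0782% higher, 0.0391% lower), and smooth muscle cells 1 higher of 33 (0.267%). In microglia 6 of 34 were higher (1.40% of all genes) and 0 lower (0.289%), among them Tnfaip3 (2.04), Nfkbiz (2.06), Nfkbia (1.55) and Cxcl10 (2.75).

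As a description, the genes most like each member were taken by Pearson's r over the 21 summed levels of arterial, capillary and venous cells, centred within each library, among 6861 candidates; the sums share libraries, so no p is given. Nfkbia was nearest to Icam1 (r = 0.98), followed by Clint1 and Nr3c1 (both 0.98). Sele was nearest to Irf1 (0.93), Cxcl1 (0.925) and Nfkbia (0.91), and Selp to Ppp1r18 (0.96), Casp4 (0.94) and Irf1 (0.93). Ackr1 was nearest to Lrg1 (0.99), a gene used to name the venous cluster, then Clint1 (0.99) and Hs3st1 (0.98). Vcam1 was nearest to Tmem176a, Ecscr and Npm1 (all 0.98). The other members had neighbours of their own: Atp6v0e (0.96) for Icam2, Atl2 (0.97) for Pecam1 and Pakap (0.99) for Cd34.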

How the data were processed

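The deposited tables hold UMI counts per gene and barcode, made by the authors with Cell Ranger 4.0.0 (12 months) and 6.1.1 (3 months) per the file headers; the submitters' processing notes name mm10 and Seurat. Cell calling and the treatment of intronic reads were not given in the sources used here. Cells with at least 500 genes and at most 15% mitochondrial UMIs were kept, and the highest doublet scores (scanpy 1.11.5) were removed at 0.8% per 1000 barcodes. Libraries were integrated with Seurat 5.3.0 (30 components, resolution 0.5); naming thresholds were set after seeing the clusters, and mixed clusters were left out. Counts were summed per library and class of at least 20 cells and tested with edgeR 4.0.16 (TMM, filterByExpr), which was tested on simulated data; DESeq2 1.42.0 and other filters, scalings, cells and libraries were tried as alternatives. Permutation tests used scipy 1.17.1. Sequences are from RefSeq, in which 5 of the 8 genes had a promoter entry. The members and lists were chosen with earlier results of these data known. All 8 members were named in each comparison, and up to 4 list genes per role by size among those that passed with at least 20 CPM.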

Additional observations from a re-analysis of the deposited data

Results flagged for a closer look

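In groups of 4 libraries, the gap of a library to its nearest neighbour was divided by the range of the group. A library was set aside for a closer look when this ratio exceeded Dixon's 95% critical value. Of 40 such groups 4 held one. For normally distributed values chance gives about 1 in 20, a rate that need not hold for levels resting on few UMIs. Sele in capillary cells of 3-month replicate 2 was 0.774 CPM beside 0, 0 and 0.122 CPM, from 7 UMIs in 3 cells. Ackr1 in arterial cells of 3-month replicate 1 was 2.61 CPM beside 0, 0.373 and 0.406 CPM, from 3 UMIs in 1 cell. Vcam1 in smooth muscle cells of 3-month replicate 3 was 61.4 CPM beside 0, 4.35 and 7.28 CPM, from 60 UMIs in 6 cells. Icam1 in microglia of 3-month replicate 2 was 252 CPM beside 157, 164 and 167 CPM.

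The age difference differed between venous and capillary cells by edgeR's interaction test for 3 genes, at -0.42 for Icam2, 3.55 for Sele and 0.39 for Cd34 on the log2 scale. Of 9 alternatives the call held in 1, 3 and 4, respectively, and it held for none of them with the replicate number as a block.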

How the results depend on the processing

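With 3 and 4 libraries, single libraries decide several age calls, and Sele and Selp outside veins rest on few UMIs. Over all results and alternatives chosen at the start, 1204 values kept their direction and side of the threshold or stayed near the reported count, 124 no longer passed or fell outside that range, 21 passed only in the alternative and 22 changed sign. Under the alternatives run, 7 genes were called between venous and capillary cells and 8 between venous and arterial cells throughout, and 3 to 5 between the ages in venous cells.

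Leaving out each library in turn gave 3 to 5 genes called between arterial and capillary cells, 1 to 2 between ages in capillary cells, 0 to 1 in arterial cells, 0 to 2 in smooth muscle cells, 0 to 1 in microglia, 0 to 4 in the interaction, and 0 of the 12 detection calls between segments, since 6 libraries allow no smaller p than 0.0312. Resolution 1.0 gave 3 arterial against capillary and 1 capillary age call, and thinning the sums to the smallest gave 3 calls in pericytes against capillary cells and 0 age calls in microglia. With no filter on low counts the age calls were 1 in arterial cells, 4 in smooth muscle cells and 2 in microglia. With at least 1000 genes per cell they were 1 in capillary cells, 2 in smooth muscle cells and 0 in microglia. In smooth muscle cells no TMM factors gave 1 and at most 10% mitochondrial UMIs gave 2. DESeq2 gave 1 interaction call. The share of all genes called under the same alternative is not given beside the counts in this section. They describe only how stable the calls were. The median odds ratio of Icam1 and Vcam1 in venous cells was 1.80 at 500 and 1.84 at 2000 UMIs. The cause was not tested.

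Replicate numbers did not pair the libraries (same-number correlations from -0.05 to 0.18); with the number as a replicate block, 0 genes were called between the ages in microglia and 0 in the interaction, and no other count of calls moved by over 1.5 times.

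The following differences changed sign. Ackr1 in microglia against capillary cells was -0.44 to 0.56 without single libraries (positive without 12-month replicate 1), 0.0846 with DESeq2, 0.48 with at least 1000 genes and 1.30 at resolution 1.0, and Cd34 in arterial against capillary cells was 0.0287 at resolution 1.0. Among age differences, Pecam1 was -0.0201 in capillary cells with no TMM factors, -0.60 to 0.0304 in pericytes (positive without 12-month replicate 3) and 0.32 in microglia with at least 1000 genes. Icam2 was -0.0552 to 0.25 in arterial cells, negative without 12-month replicate 2 (-0.00779), 3-month replicate 2 or 3-month replicate 4 (-0.0299), and -0.23 to 0.0813 in venous cells, positive without 3-month replicate 1. Vcam1 was -0.0846 to 0.42 in arterial cells, negative without 12-month replicate 1, and -0.78 to 0.034 in the interaction, positive without the same library. In smooth muscle cells Vcam1 was -0.18 to 0.53, negative without 12-month replicate 2 and 3-month replicates 1 (-0.00959), 2 (-0.13) and 4 (-0.12). Without thinning, the difference in detection share changed sign for Cd34 in venous against capillary cells (11.1 points, from -15.8 passing), Icam2 (5.03) in venous against arterial cells, and Vcam1 (-8.84, from 15.6) and Cd34 (-16.8, from 5.92) in veins at 12 against 3 months.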
